A study of Mus musculus with 2 samples.

Results

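Ion channel genes were examined in mouse tendon cells under mechanical shear. They were the genes whose single symbol in the platform annotation begins as those of potassium channels (Kcn), voltage-gated calcium channels (Cacn), voltage-gated sodium channels (Scn followed by a digit), TRP channels (Trpa, Trpc, Trpm or Trpv), CLC chloride channels and transporters (Clcn) or P2X receptors (P2rx), or is Piezo1, Piezo2 or one of the IP3 receptors (Itpr). This rule, which used no measured value, found 61 of the 10845 genes named by single-symbol probes. By class they were 30 potassium, 7 calcium, 5 sodium, 7 TRP and 5 CLC genes, 2 P2X receptors, 1 IP3 receptor, 1 Piezo gene and 3 transcripts that share a channel's symbol without coding for one, Kcnq1ot1, Kcnd3os and Kcnmb4os1. Another 4 matching genes, Kcng2, Trpc4ap, Trpm3 and Trpv2, lay only on probes that carry a second gene's symbol, and they were left out.

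The study asked what mechanical shear does to cells of the flexor tendon, and its data are 2 spotted 2-colour arrays. One compared pooled cells sheared for 6 h with pooled control cells of that time, and the other compared tenocytes sheared at 50 rpm for 12 h with control tenocytes of that time, tenocytes being the fibroblast-like cells of tendon. The organism is mouse, and no strain, age or passage is given in the labels. No shear speed is given for the 6 h array, and the sheared cells at 12 h are not labelled as pooled. A difference in speed or pooling could therefore not be told apart from one in time. Sheared RNA was labelled with Cy5 and control RNA with Cy3 on both arrays, with no dye swap. Every value below is a log2 ratio, likely sheared over control, after subtraction of the array's median over all spots, which was -0.323 at 6 h and -0.479 at 12 h. The base of the logarithm is an assumption, and every sign would turn if control stood over sheared. Without this centring each value lies lower by those amounts, so a positive value under 0.323 at 6 h or 0.479 at 12 h turns negative. With 1 array per time there is no spread between samples and no test, so "higher" and "lower" describe these hybridisations. Precision is limited by having so few arrays. The available error was the SD between different probes of a gene, 0.738 at 6 h and 0.855 at 12 h pooled over all genes with several probes. A fixed size of 2-fold (a log2 ratio of 1 or more, or -1 or less) was used to count genes.

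Potassium channels let potassium leave the cell and so set its resting voltage, while voltage-gated sodium and calcium channels open on depolarisation and carry current inward. TRP and Piezo channels are cation channels that open to chemical, thermal or mechanical stimuli, and Piezo1 is gated by membrane tension and known for sensing fluid shear in endothelium. IP3 receptors release calcium from the endoplasmic reticulum, P2X receptors open to extracellular ATP, and CLC proteins carry chloride across the plasma membrane and the membranes of endosomes and lysosomes. In tendon, fluid flow and stretch are known to raise calcium inside the cells. A bulk ratio cannot tell a change in RNA per cell from a change in the number of cells that hold it.

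Promoters are shown first, since a short sequence known as the shear stress response element, GAGACC, was described in promoters of endothelial genes that react to flow. RefSeq's GRCm38.p6 promoter windows, each from 250 bases before to 50 bases after a gene's start, covered 47 of the 61 genes with 61 windows. GAGACC or its reverse complement GGTCTC stood in 12 of these windows (19.7%), against 5390 of all 32851 windows (16.4%). The AP-1 site TGACTCA, on both strands, stood in 1 window (1.64%), that of Trpv3, against 5.20% of all windows. The cyclic AMP response element TGACGTCA, its own reverse complement, stood in 2 (3.28%), those of Clcn3 and Clcn4, against 1.79% of all windows. The windows of 3 genes that the results below turn on are printed in lower case with GAGACC or GGTCTC in capitals. They are Piezo1, known as a shear sensor (chr8:122551280-122551579, minus strand), Kcnj4, one of the highest channel genes at 12 h (chr15:79505192-79505491, minus strand), and Scn7a, the lowest at 12 h (chr2:66784861-66785160, minus strand).
Piezo1: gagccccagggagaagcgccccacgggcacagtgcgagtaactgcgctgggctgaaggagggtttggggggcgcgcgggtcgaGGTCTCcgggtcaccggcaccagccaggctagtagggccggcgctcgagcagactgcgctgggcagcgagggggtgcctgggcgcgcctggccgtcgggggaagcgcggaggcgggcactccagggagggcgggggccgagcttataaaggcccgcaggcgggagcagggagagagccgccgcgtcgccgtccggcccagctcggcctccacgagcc
Kcnj4: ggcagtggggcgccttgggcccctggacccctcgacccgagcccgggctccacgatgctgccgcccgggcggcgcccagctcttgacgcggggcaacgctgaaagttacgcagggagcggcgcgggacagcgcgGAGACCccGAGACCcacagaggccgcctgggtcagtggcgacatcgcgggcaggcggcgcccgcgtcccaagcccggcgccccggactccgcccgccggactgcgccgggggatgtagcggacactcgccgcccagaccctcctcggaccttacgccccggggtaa
Scn7a: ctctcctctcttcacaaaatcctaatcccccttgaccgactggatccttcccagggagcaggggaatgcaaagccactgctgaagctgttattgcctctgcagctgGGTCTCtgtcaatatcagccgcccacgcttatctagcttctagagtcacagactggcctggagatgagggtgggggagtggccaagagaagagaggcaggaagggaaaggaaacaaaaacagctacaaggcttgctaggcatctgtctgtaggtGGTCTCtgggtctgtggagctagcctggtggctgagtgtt
Kcnj4 and Scn7a each held 2 copies and Piezo1 held 1. At 12 h Kcnj4 read high, Scn7a read low and Piezo1 lay nearer the middle of the distribution. These genes were picked with their values known, so they cannot show whether the letters go with high or low values. A match to these letters is a description of the window and not a binding site.

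As a set, the channel genes read lower in sheared than in control cells at 6 h and lay nearer to the other genes at 12 h. Of the 57 measured at 6 h, 23 were at least 2-fold lower (40.4%) and 4 at least 2-fold higher (7.02%). Among all 10348 named genes of that array 18.9% were lower and 6.19% higher. The median channel gene was at -0.66 at 6 h, with quartiles of -1.64 and 0.03, against a median of -0.11 over all named genes, with quartiles of -0.77 and 0.43. At 12 h, 15 of 60 channel genes were lower (25%) and 6 higher (10%), against 20.5% lower and 14.5% higher among all 10733 named genes. The median was -0.31 for channel genes at 12 h and -0.14 for all named genes.

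Most channel genes rested on 1 probe. At 6 h this was so for 46 of 57 channel genes (80.7%), against 47.9% of all named genes. Restricted to genes with 1 probe, 43.5% of the channel genes and 25.8% of all named genes were at least 2-fold lower at 6 h, with medians of -0.69 and -0.32. At 12 h the same shares were 21.7% and 24.8%. Among genes with 2 or more probes 27.3% of 11 channel genes and 12.5% of all such genes were lower at 6 h. At 12 h it was 35.7% of 14 channel genes and 16.6%, so these shares came no nearer to each other. The medians of these genes did, at -0.66 and 0.05 at 6 h and -0.09 and 0.03 at 12 h. Spots without a value at 6 h made up 8 of the 80 channel spots (10%) and 5.11% of all spots with 1 symbol, and at 12 h 1.25% and 1.45%. The brightness of a spot was not used here, and its part in the low 6 h values was not tested. The pooled probe SD of channel genes was 1.56 over 11 genes at 6 h and 1.51 over 14 at 12 h, against the 0.738 and 0.855 of all genes with several probes.

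**Figure D1:**
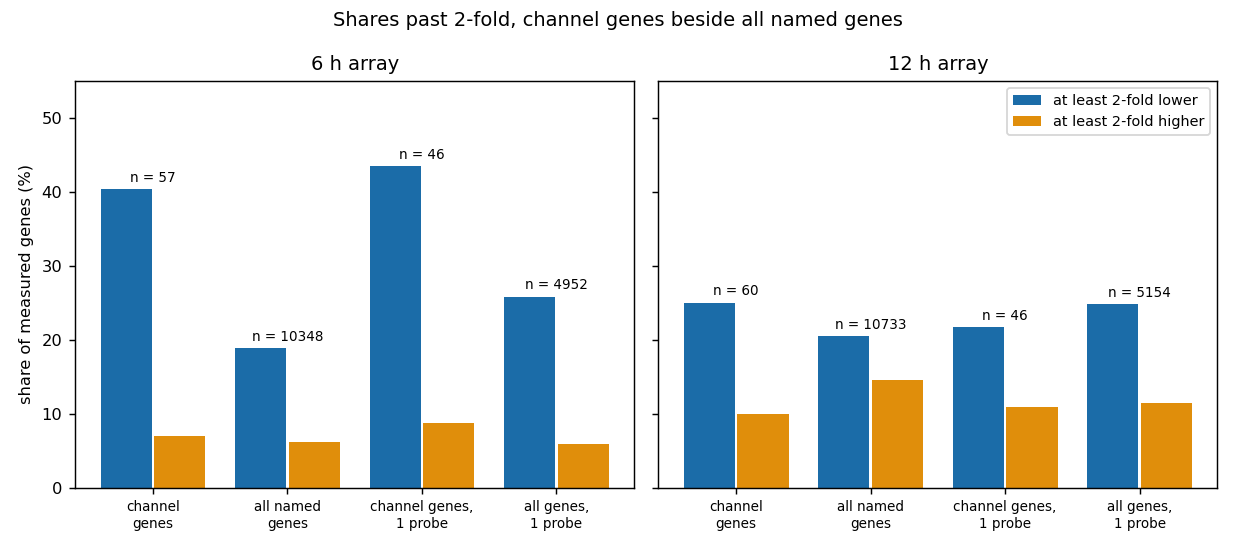
Share of measured genes (vertical axis, percent) at least 2-fold lower (blue) or higher (orange) in sheared cells on the 6 h array (left) and the 12 h array (right), for channel genes, all named genes, and each restricted to genes with 1 probe; the number of genes stands above each pair of bars. At 6 h 40.4% of channel genes were lower against 18.9% of all named genes, while at 12 h the shares were 25% and 20.5%.

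Voltage-gated potassium channel pore subunits, which open on depolarisation and repolarise the cell, had 11 members. At 6 h 5 were at least 2-fold lower (45.5%, against 18.9% of all named genes) and 1 was higher (9.09%, against 6.19%). At 12 h 1 was lower (9.09%, against 20.5%) and 2 were higher (18.2%, against 14.5%). The medians were -0.66 at 6 h and -0.03 at 12 h. Kcnq1, which carries the slow repolarising current of heart muscle, read 1.05 at 6 h and 3.18 at 12 h on 1 probe. The 12 h value, a 9.09-fold higher level, was the highest of all channel genes on that array, and Kcnq1 alone was at least 2-fold higher on both arrays. Without centring its 6 h value was 0.72, and no channel gene was then 2-fold higher on both. Of the A-type channels, which inactivate quickly, Kcnd3 read 0.46 at 6 h and 1.06 at 12 h (0.58 without centring and 0.95 with both arrays on one scale), while Kcnd2 read -2.10 and -2.01. The probes of Kcnd2 stood at -1.39 and -2.82 at 6 h and at -0.39 and -3.64 at 12 h, all on the lower side but far apart.

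Of the other voltage-gated pore subunits 4 were at least 2-fold lower at 6 h and none was at 12 h. Kcna1, a delayed rectifier of axons, read -2.32 at 6 h and 0.60 at 12 h. Its muscle relative Kcna7 read -2.99 and -0.03. Kcnh1 and Kcnh3, of the ether-a-go-go family, read -1.08 and -1.21 at 6 h and -0.97 and -0.75 at 12 h, a difference between times smaller than the SD between probes. The remaining subunits, named here after their values were seen so that each class is complete, stayed inside 2-fold on both arrays. They were Kcnc4, with -0.66 at 6 h and 0.21 at 12 h, and Kcng1, Kcns3 and Kcnv1, which modify other subunits and lay between -0.44 and -0.33 at 6 h and between -0.97 and 0.73 at 12 h.

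Inward rectifiers, which pass potassium more easily into than out of the cell and hold the resting voltage, spread over the widest range of the potassium channel groups on each array. At 6 h 4 of 6 were measured, 2 of them at least 2-fold lower and 1 higher. At 12 h all 6 were measured, with 3 lower, 2 higher and 1 between. For all named genes the shares were 18.9% lower and 6.19% higher at 6 h, and 20.5% and 14.5% at 12 h. Kcnj9, a G-protein-gated subunit of brain, read -5.56 at 6 h (47.1-fold lower), the lowest value of any channel gene on that array, and -1.06 at 12 h. Kcnj12, a strong rectifier of heart and muscle, read -4.29 at 6 h and -2.20 at 12 h. Both were thus at least 2-fold lower on each array, on 1 probe each, but with the arrays scaled to one spread Kcnj9 read -0.95 at 12 h and was inside 2-fold. The other G-protein-gated subunits were on the higher side: Kcnj5, of the heart atrium, read 1.57 at 6 h and 0.59 at 12 h, and Kcnj6, of brain, read 0.63 and 1.54. Kcnj4, a strong rectifier of brain, and Kcnj8, the pore of the ATP-sensitive channel of vascular muscle, had no value at 6 h. At 12 h they stood at opposite ends, with 2.30 for Kcnj4 and -3.01 for Kcnj8.

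The K2P (2-pore-domain) subunits, which give the background leak of potassium, lay between -0.83 and 1.01 at 6 h and between -0.32 and 0.89 at 12 h. Kcnk1 read 1.01 at 6 h on 1 probe and 0.89 at 12 h, where its probes stood at 1.88 and -0.10. Kcnk10, a channel opened by membrane stretch and lipids, read -0.83 at 6 h and 0.26 at 12 h. Kcnk6 and Kcnk7, named after their values were seen, read -0.32 and -0.73 at 6 h and -0.32 and 0.15 at 12 h. Of the 4, 1 was at least 2-fold higher at 6 h, Kcnk1, which at 0.69 lost that place without centring. None was higher at 12 h or lower on either array. On the 6 h and 12 h arrays 18.9% and 20.5% of all named genes were lower and 6.19% and 14.5% higher.

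Accessory subunits of potassium channels had a median of -0.98 at 6 h and -1.18 at 12 h. Of 7 measured at 6 h 3 were at least 2-fold lower and 1 higher, and of 6 measured at 12 h 3 were lower and none higher. Shares over all named genes were 18.9% lower and 6.19% higher at 6 h, and 20.5% and 14.5% at 12 h. Kcnip4, a calcium-binding partner of A-type channels, had the highest 6 h value of all channel genes, 2.32 (4.99-fold higher) on 1 probe, and no value at 12 h. Kcnmb1, the beta subunit that makes the large calcium-activated channel of smooth muscle more sensitive to calcium, read -1.83 at 6 h and -2.37 at 12 h. Kcne3, a single-span partner of Kcnq1 and other pores, read -2.28 and -1.89. Its relative Kcne2 read -1.64 at 6 h but -0.32 at 12 h, and Kcne1l read 0.27 and -0.06. The cytoplasmic beta subunits Kcnab2 and Kcnab3 read 0.44 and -0.98 at 6 h and -0.61 and -1.76 at 12 h. Of the calcium-activated pores, Kcnn4, the intermediate-conductance channel of fibroblasts and lymphocytes, read -1.18 at 6 h and -0.18 at 12 h, and the small-conductance Kcnn2 read -0.24 and -0.82.

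**Figure D2:**
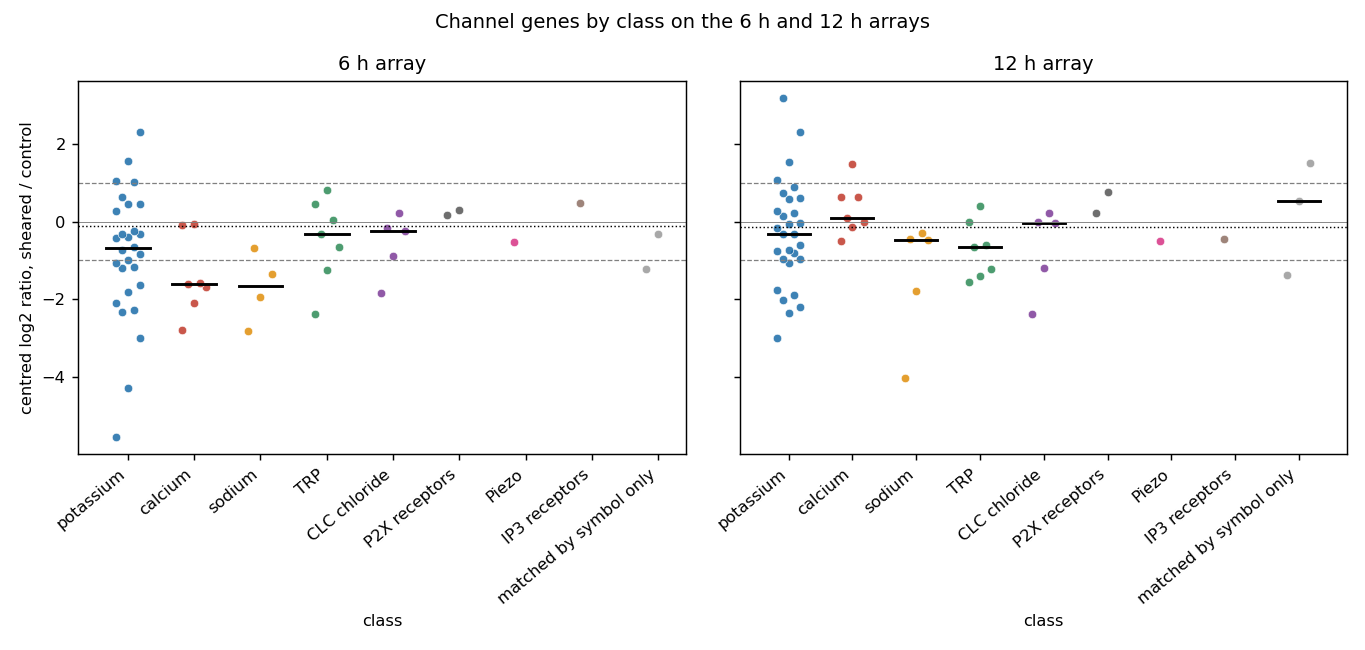
Centred log2 ratio of sheared over control (vertical axis) of each channel gene, by class (horizontal axis), on the 6 h array (left) and the 12 h array (right). Points are genes, short bars the class median where 3 or more genes were measured, dashed lines 2-fold, the dotted line the median of all named genes; the calcium class lies at a median of -1.62 at 6 h and 0.10 at 12 h.

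Voltage-gated calcium channel genes read low at 6 h and near 0 at 12 h. All 7 read below 0 at 6 h and 5 of them were at least 2-fold lower, with a median of -1.62. Of all named genes 55.3% read below 0 and 18.9% were at least 2-fold lower on that array. At 12 h none was at least 2-fold lower and 1 was higher, against 20.5% and 14.5% of all named genes. The 12 h median was 0.10, which turns negative without centring. Cacna1a, the pore of a channel of nerve terminals, read -1.62 at 6 h and -0.02 at 12 h. The auxiliary subunit Cacna2d1, which carries pores to the surface, read -1.69 and 0.63. The gamma subunits Cacng1, of skeletal muscle, and Cacng6 read -2.09 and -1.58 at 6 h and -0.50 and 0.10 at 12 h. Each of these 4 genes rested on 1 probe, and the difference between times was not tested.

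In this class 2 members had several probes. Cacna1d, an L-type pore, had a median of -2.79 at 6 h and 1.47 at 12 h, and it was the 1 channel gene at least 2-fold away on opposite sides. Without centring its 12 h value was 0.99, just inside 2-fold. Its first probe stood at 1.06 at 6 h and 3.66 at 12 h and its second at -6.63 and -0.72. Both probes thus read higher at 12 h than at 6 h, from levels that lay far apart. Cacna1g, a T-type pore that opens at low voltage, had 3 probes between -0.29 and 0.02 at 6 h and between -0.43 and 0.69 at 12 h. Cacna1b, of nerve terminals, read -0.08 at 6 h and 0.64 at 12 h.

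Voltage-gated sodium channel genes read below 0 in 4 of 4 cases at 6 h and 5 of 5 at 12 h, as did 55.3% and 55.7% of all named genes. Of 4 measured at 6 h 3 were at least 2-fold lower, with a median of -1.66, and of 5 measured at 12 h 2 were, with a median of -0.47. The shares at least 2-fold lower over all named genes were 18.9% at 6 h and 20.5% at 12 h. Scn7a, an atypical channel of the family known for sensing sodium levels, read -1.95 at 6 h and -4.02 at 12 h, a 16.3-fold lower level at 12 h and the lowest channel value of that array. Scn1a, a pore subunit of brain, had no value at 6 h and read -1.79 at 12 h. The beta subunits, which anchor and tune the pore, were low at 6 h and less so at 12 h: Scn3b read -2.81 and -0.47, Scn2b -1.36 and -0.46, and Scn4b -0.67 and -0.31. The probes of Scn4b were close together, at -0.76 and -0.59 at 6 h and -0.37 and -0.24 at 12 h.

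The TRP genes had a median of -0.32 at 6 h and -0.65 at 12 h. Of 7 genes 2 were at least 2-fold lower at 6 h (28.6%, against 18.9% of all named genes) and 3 at 12 h (42.9%, against 20.5%). None was higher on either array, against 6.19% and 14.5% of all named genes. Trpm4, which calcium opens to monovalent cations, read 0.81 at 6 h and -1.22 at 12 h, or -0.85 at 12 h with print blocks centred. Trpv3, a warmth-activated channel of skin, read 0.44 and -1.56. Trpc6, which diacylglycerol opens, was low at 6 h alone, with -1.26 against -0.02 at 12 h. Trpc1 read -0.32 and -0.60, and Trpm2, opened by ADP-ribose under oxidative stress, read -0.66 and -0.65.

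Trpm7, a channel fused to a kinase that admits magnesium and is widely expressed, had 4 probes that fell into pairs. One pair stood at 1.05 and 0.91 at 6 h and at 2.63 and 2.54 at 12 h. The other pair stood at -0.84 and -1.01 at 6 h and at -2.03 and -1.74 at 12 h. The gene's median, 0.03 at 6 h and 0.40 at 12 h, therefore describes none of its probes. Trpm1, of retinal bipolar cells and melanocytes, read -2.38 at 6 h on 1 probe and -1.42 at 12 h, where 2 probes annotated with the same sequence records stood at 0.02 and -2.85.

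All 5 CLC genes had several probes on both arrays. Clcn5, an endosomal chloride and proton exchanger of kidney tubules, read -1.83 (probe SD 0.53) at 6 h and -2.37 (probe SD 0.36) at 12 h, with both probes at least 2-fold lower on each array. Its relative Clcn3 read -0.88 (probe SD 0.04) at 6 h and -1.20 (probe SD 0.80) at 12 h. The lysosomal Clcn7 read 0.22 (probe SD 0.05) and 0.23 (probe SD 0.09), which turns negative without centring. Clcn2 and Clcn4, named after their values were seen, read -0.23 and -0.17 at 6 h and -0.04 and -0.01 at 12 h. The order of these 5 genes was the same on both arrays, with Pearson's r = 0.99 across the 5 genes, which share each array's hybridisation.

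**Figure D3:**
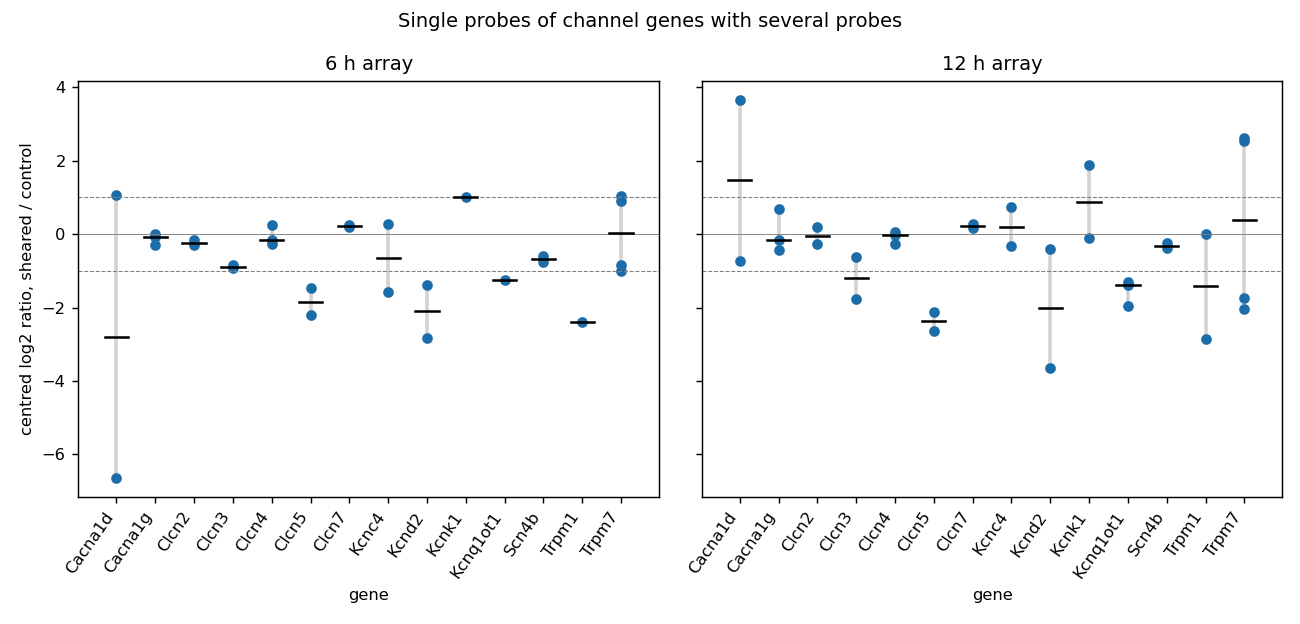
Centred log2 ratio of sheared over control (vertical axis) of every single probe of the 14 channel genes with several probes (horizontal axis) on the 6 h array (left) and the 12 h array (right). Points are probes, black bars the gene's median; the probes of Clcn5 lie together on the lower side, while those of Cacna1d and Trpm7 lie on both sides of 0.

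Channels linked to mechanical stimuli or calcium release were near the centre of the arrays. Of a list of 25 such genes 10 were measured, 1 of them at least 2-fold lower at 6 h and 2 at 12 h, with none higher. Of all named genes 18.9% and 20.5% were lower and 6.19% and 14.5% higher at these times. The list's median was -0.19 at 6 h and -0.30 at 12 h, against -0.11 and -0.14 for all named genes. Piezo1 read -0.52 at 6 h and -0.51 at 12 h on 1 probe, inside the scatter between probes. P2rx4, an ATP receptor known in endothelium for its response to flow, read 0.16 and 0.76. P2rx1 read 0.29 and 0.22, and Itpr2, the 1 IP3 receptor measured, read 0.48 at 6 h and -0.45 at 12 h. The members that passed 2-fold were Trpc6 at 6 h and Trpm4 and Clcn3 at 12 h, described above. Trpm7 counted as inside 2-fold at 12 h by its median of 0.40, though all 4 of its probes were past 2-fold, a pair on either side. Trpv2, another stretch-linked channel, lay only on probes shared with Becn1, which stood at 0.31 and -0.14 at 6 h and at -0.75 and -0.97 at 12 h.

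Transcripts from the other strand of channel genes differed from their partners at one locus and not at another. Kcnq1ot1, the imprinted non-coding RNA read from within Kcnq1, stood at -1.24 at 6 h on 1 of its 3 probes and at -1.39 (probe SD 0.36, 3 probes) at 12 h. Kcnq1 itself was higher on both arrays, as given above. Kcnd3os had no value at 6 h and read 1.51 at 12 h, on the same side as Kcnd3 with 1.06. Kcnmb4os1 read -0.33 and 0.52, and its partner was not among the measured genes. The sources used here do not say whether these probes tell the strands apart.

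Across the 56 channel genes measured on both arrays, the values correlated with Pearson's r = 0.42 and Spearman's rho = 0.41, against 0.66 and 0.74 across 10288 named genes. Across the 42 channel genes with 1 probe on each array Pearson's r was 0.42, against 0.59 across 4671 named genes of that kind. These coefficients are across genes, which share each array and are not independent replicates. Of the 56, 9 were at least 2-fold lower on both arrays (16.1%, against 9.80% of all named genes) and 1 was higher on both (against 4.34% of all named genes). The 9 were Clcn5, Kcnd2, Kcne3, Kcnj9, Kcnj12, Kcnmb1, Kcnq1ot1, Scn7a and Trpm1, and in Clcn5 and Kcnd2 they rest on 2 probes on each array. They made up 39.1% of the 23 channel genes lower at 6 h and 69.2% of the 13 lower at 12 h. Among all named genes the corresponding shares were 52.6% and 51.6%. A further 13 channel genes were lower at 6 h and inside 2-fold at 12 h, while 4 were lower at 12 h and inside 2-fold at 6 h. These were 23.2% and 7.14% of the 56, against 8.62% and 9.10% of all named genes. Between the arrays 36 of the 56 (64.3%) read higher at 12 h than at 6 h, against 56.6% of all named genes, with a median difference of 0.37 for channel genes and 0.12 for all named genes.

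**Figure D4:**
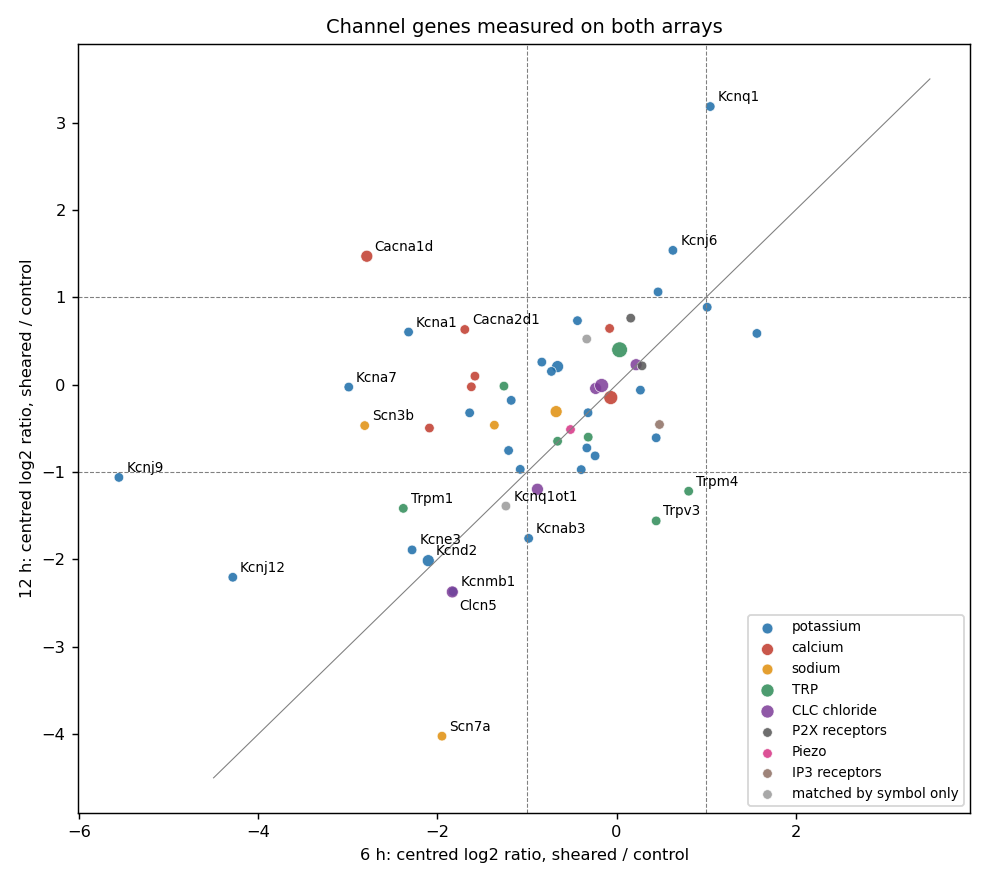
Centred log2 ratio of sheared over control on the 6 h array (horizontal axis) and on the 12 h array (vertical axis) for the 56 channel genes with both values, coloured by class, with larger points for genes with more probes, dashed lines at 2-fold and a grey line of equal values. Kcnq1 alone lies in the upper right field, 9 genes lie in the lower left one, and a row of genes low at 6 h lies near 0 at 12 h.

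Other genes of ion transport, from lists drawn up by function, are given beside the channels. Of each list the 3 with the largest mean absolute value over both arrays are named, so genes without a value on 1 array could not be picked. Their counts can be set against the 18.9% lower and 6.19% higher of all named genes at 6 h and the 20.5% lower and 14.5% higher at 12 h. Of 10 measured ligand-gated channel genes 1 was at least 2-fold lower at 6 h, Gabra3 at -2.26, and none at 12 h, with none higher. Asic2 and Gabra6 read -0.88 and 0.44 at 6 h and -0.60 and 0.98 at 12 h. For calcium pumps, exchangers and release proteins 4 of 11 were lower at 6 h and 5 of 12 at 12 h, with 1 higher at 12 h. In that list Slc8a1, the sodium and calcium exchanger, read -1.19 and -1.70, the plasma membrane pump Atp2b1 read -0.82 and -1.43, and the pump inhibitor Sln read -1.26 and -1.02. Casq1 had no value at 6 h and the list's lowest 12 h value, -5.40 on 1 probe. Calcium sensors had 2 of 20 lower and 3 higher at 6 h, and 2 of 21 lower and 3 higher at 12 h. Among them the calmodulin gene Calm2 read 1.04 (probe SD 0.21, 5 probes) and 1.79 (probe SD 0.17). The calcineurin subunit Ppp3ca and its target factor Nfatc3, with 4 probes each, lay on the other side, at -0.85 and -0.88 at 6 h and -1.73 and -1.92 at 12 h. Of the connexins and pannexins 2 of 5 were lower and 1 higher at 6 h, and 1 of 6 lower and 1 higher at 12 h. The hemichannel gene Panx1, which releases ATP, read 1.04 and 2.30 on 1 probe, and the connexins Gja4 and Gjb5 read -1.54 and -1.30 at 6 h and -2.78 and -0.16 at 12 h. A list of sodium and potassium pump genes, which also held Atp4a and Atp4b of the proton and potassium pump, had 3 of 11 lower at each time. In it 1 was higher at 6 h and 2 at 12 h. Atp4a read -1.80 and -1.45, and Atp4b -1.69 and -0.62. The regulators Fxyd1 and Fxyd4 read 0.65 and -0.79 at 6 h and 1.71 and -1.76 at 12 h. No Atp1a gene, for the sodium pump's catalytic subunit, was measured. Of its beta subunits Atp1b1 and Atp1b3, with 8 probes each, read 0.30 and 0.46 at 6 h and 0.56 and 1.02 at 12 h. Atp1b2 read -0.56 and -1.15 on 1 probe. The other chloride channels had 4 of 14 and 3 of 14 lower, with none and 3 higher, and Ano5, Best1 and Clic5 read -3.94, -2.91 and -1.28 at 6 h and -0.48, -0.81 and -1.69 at 12 h. Of 14 genes for G-protein-coupled purine receptors and nucleotide-degrading enzymes 2 were measured, Entpd1 and Nt5e, neither past 2-fold on either array.

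Ratios do not show whether a gene is expressed, so the cell type could not be checked by level. The marker counts below are of genes at least 2-fold away. They stand beside 18.9% lower and 6.19% higher of all named genes at 6 h, and 20.5% and 14.5% at 12 h. The medians stand beside -0.11 at 6 h and -0.14 at 12 h for all named genes. Of 15 tenocyte markers 10 were measured, with none past 2-fold at 6 h and 1 lower at 12 h, Pdgfra at -1.86 (Dcn and Fmod read 0.62 and 0.75), and medians of -0.01 and -0.07. Neural markers, of tissue rich in these channels, had a median of -0.77 at 6 h and 0.06 at 12 h over 10 of 15 genes. At 6 h 2 were lower, Nefl at -1.49 and Snap25 at -1.77, and 1 was higher, Elavl4 at 1.16, while at 12 h none was lower and 2 were higher. Skeletal muscle markers had medians of 0.30 and 0.06 over 9 of 15 genes, with 1 lower at each time, Actn2 at -1.33 at 6 h and Pvalb at -2.14 at 12 h, and with Mb at 0.38 and 0.95. Leukocyte markers had medians of 0.39 and 0.46 over 9 of 12 genes, with 2 lower at each time and 3 higher at 12 h, and among them Csf1r read -5.42 and -2.31, Cd68 0.58 and 1.70, and Cd14 0.80 and 1.24. Endothelial markers had medians of -0.63 and -0.23 over 7 of 10 genes, with 1 lower at each time and 1 higher at 6 h. The lower ones were Pecam1 at -2.03 (probe SD 1.01, 2 probes) at 6 h and Emcn at -1.40 (1 probe) at 12 h. The higher one was Kdr at 1.76, on 2 probes that lay far apart (probe SD 2.62). The part of other cell types in the channel values was not tested.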

How the data were processed

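The values are log2 ratios as deposited by the authors, 1 per spot and array, for 42624 spots on each of 2 arrays. Per the labels, channel 1 (Cy3) held control RNA and channel 2 (Cy5) sheared RNA. Scanner, background correction, normalization and spot filters are not given in the sources used here, so neither an intensity trend nor a spot's brightness could be checked, and the depth is unknown. The base of 2 and the direction are assumptions, the base resting on the range of the values.

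The median of all spots was subtracted from each array (Python 3.11.15, pandas 2.3.3). Probes were named through GEO's platform annotation: 21703 spots had 1 symbol, 1122 several and 19799 none. Single-symbol probes of a gene were summarised by their median. All 61 gene IDs were found in RefSeq's GRCm38.p6 table with unchanged symbols. With 1 array per group no test was made. The counting was tested on simulated data with no missing spots and less noise than the probe SD of these arrays. That run checked the arithmetic and not the precision of the counts. Promoter windows are RefSeq's.

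Members, classes and lists were chosen with earlier results of these data known. Genes were named by rule: members at least 2-fold higher on either array, the 10 lowest of each array, those lower on both arrays with 2 or more probes, the highest and lowest of each class, the 4 largest differences between times in each direction, the mechanical list, and from other lists the 3 with the largest mean absolute value. Other members are named so that classes are complete, and Casq1, Atp1b1, Atp1b2, Atp1b3 and Atp4b of the other lists are named beyond the rule. Alternatives changed centring, scaling, probe summary, probe number, shared genes, several-symbol probes, print-block centring and threshold.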

Additional observations from a re-analysis of the deposited data

Results flagged for a closer look

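Cacna1d drew attention because it lay at least 2-fold away on opposite sides on the 2 arrays, with -2.79 at 6 h and 1.47 at 12 h. Its 2 probes had an SD of 5.44 at 6 h and 3.09 at 12 h, and the difference between times was not tested. Without centring the 12 h value was 0.99, inside 2-fold.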

How the results depend on the processing

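Across alternatives the median of the channel genes lay between -0.98 and -0.65 at 6 h and between -0.79 and -0.09 at 12 h. It was under that of all named genes each time. The all-gene median was itself below 0 except with 2 or more probes per gene, where it was 0.05 and 0.03. On values without centring the all-gene median was -0.44 at 6 h and -0.62 at 12 h. Without centring, the genes at least 2-fold higher numbered 2 at 6 h (3.51%, against 2.38% of all named genes), where centring gave 4. Those lower then numbered 23 at 12 h (38.3%, against 35.1% of all named genes), where centring gave 15. The share of higher genes among those past 2-fold at 12 h was then 14.8%, against 28.6% with centring. Among all named genes this share was 16.5% without centring and 41.4% with it. With 2 or more probes per gene, 11 genes were left at 6 h, with none higher (0) and 3 lower, and 14 at 12 h, with 1 higher and 5 lower, and the correlation between arrays was 0.23. The share lower among these was 27.3% at 6 h, against 12.5% of all genes with 2 or more probes, and 35.7% at 12 h, against 16.6%. Of all such genes 6.43% were higher at 6 h and 17.4% at 12 h. At 1.5-fold 13 were higher (21.7%) and 23 lower (38.3%) at 12 h, against 24.4% and 33.1% of all named genes. At 3-fold 1 was higher at 6 h (1.75%, against 1.30% of all named genes). At 12 h 2 were then higher (3.33%, against 5.74%) and 9 lower (15%, against 9.75%). The remaining settings left these counts within 1.5 times. Of 40 values of channel genes named by the rule that were past 2-fold, 6 came inside it in some setting. Without centring these were Kcnq1 (0.72) and Kcnk1 (0.69) at 6 h and Cacna1d (0.99) and Kcnd3 (0.58) at 12 h. On one scale Kcnd3 (0.95) and Kcnj9 (-0.95) did so at 12 h, and with print blocks centred Trpm4 (-0.85) at 12 h. None of the 40 changed sign. Dropping the centring shifts a value by only 0.323 or 0.479 and scaling keeps its sign, so neither could turn a value past 2-fold. The class medians were recomputed under these settings, which gave 119 values, and 3 of them moved by more than the pooled probe SD. One was the sodium median at 6 h, which went from -1.66 to -0.67 with 2 or more probes per gene, where Scn4b alone was left. The others were 12 h medians of the transcripts matched by symbol only. Some class medians could not move, as with the mean of probes for a class of 1 gene with 1 probe. Shifts within that SD could be large. With 2 or more probes per gene the potassium median went from -0.69 to -1.38 at 6 h and from -0.32 to 0.21 at 12 h.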
